A study of Mus musculus with 6 samples.

Results

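The vascular endothelial growth factor (VEGF) axis was examined as 9 genes chosen by their roles, out of 27179 genes in the bulk count table. The members were the ligands Vegfa, Vegfb, Vegfc, Vegfd and Pgf (placental growth factor), the receptor tyrosine kinases Flt1 and Kdr, and the co-receptors Nrp1 and Nrp2. The rule uses no measured value, though earlier results of these data were known when the members were chosen. All 9 were present in both the bulk and the single-cell tables.

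The samples came from a co-culture of immature cardiomyocytes (imCMs), taken from the left ventricles of newborn C57BL/6 mice, with cardiac fibroblasts. The fibroblasts were of neonatal hearts (NF) in the imCM-NF group and of adult hearts (AF) in the imCM-AF group, and the comparison asks how imCMs differ with the age of the fibroblasts beside them. Bulk RNA-Seq was made of imCMs recovered from the co-culture, with 2 libraries a group, and 2 single-cell libraries were made on ICELL8 chips, 1 labelled cardiomyocytes and 1 labelled fibroblasts. The labels name no engineered allele and no drug for either group. The fibroblasts had been passaged in culture before use, and the plating ratio of fibroblasts to imCMs was higher for AF than for NF, so the age of the fibroblasts and their number cannot be told apart. Nothing in the labels says whether the 2 libraries of a group came from separate cultures, so the p-values measure the spread between these libraries, which may be technical.

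In the heart, VEGF-A made by cardiomyocytes and stromal cells acts on endothelial cells, where it binds Kdr (VEGF receptor 2), the main signalling receptor for vessel growth. Flt1 (VEGF receptor 1) binds VEGF-A more tightly than Kdr but signals weakly and acts largely as a trap, while PlGF and VEGF-B bind Flt1 and not Kdr. VEGF-C and VEGF-D act mainly on the lymphatic receptor Flt4, and the neuropilins Nrp1 and Nrp2 bind both VEGFs and class 3 semaphorins.

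The bulk libraries held 9278909 and 12088577 assigned reads in imCM-NF and 10766124 and 11790263 in imCM-AF, and all 9 members passed the filter on low counts. Libraries of the same group differed more than counting error allows (chi-square over its degrees of freedom 8.6 for the imCM-NF pair and 8.42 for the imCM-AF pair), so none repeats another. Levels are given as CPM, the counts scaled to the same TMM-adjusted library total, and levels are compared between genes only as RPKM, which also divides by the exon length. A gene was called changed at an edgeR adjusted p under 0.05 with an absolute log2 fold change over 0.58. By this rule 1564 of 14041 genes tested changed, which is 11.1% of them, with 6.15% higher and 4.99% lower in imCM-AF. Of the 9 members 3 were called, 1 higher and 2 lower. The libraries of the groups did not overlap for 5 of the 9 members, and for 66.0% of all genes tested.

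Among the ligands, Vegfa was higher and Pgf was lower in imCM-AF, while Vegfb, Vegfc and Vegfd were not called. Vegfa (Entrez 22339, chromosome 17, 46016993 to 46032377 in GRCm38) encodes VEGF-A, the principal endothelial growth factor. Its level was 340.5 and 283.5 CPM in the imCM-NF libraries and 499.8 and 586 CPM in the imCM-AF libraries. Both imCM-AF libraries lay above both imCM-NF libraries, with a log2 fold change of 0.80 ± 0.125 (SE, 95% interval 0.54 to 1.06, edgeR adjusted p = 0.000204, n = 2 and 2). Pgf (Entrez 18654, chromosome 12, 85166637 to 85177785) encodes PlGF, a ligand of Flt1. It stood at 26.2 and 27.0 CPM in imCM-NF and at 12.0 and 12.3 CPM in imCM-AF. The imCM-AF libraries were the lower ones without overlap, with a log2 fold change of -1.14 ± 0.13 (SE, 95% interval -1.41 to -0.86, edgeR adjusted p = 8.35e-06).

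Vegfb (Entrez 22340, chromosome 19, 6982472 to 6987651), the second Flt1 ligand, was at 149.9 and 127 CPM in imCM-NF and at 156.5 and 162 CPM in imCM-AF. The groups did not overlap, but the log2 difference of 0.21 ± 0.10 (SE) did not pass the test (edgeR adjusted p = 0.148). The lymphatic ligands gave overlapping groups. Vegfc (Entrez 22341, chromosome 8, 54077532 to 54186454) gave the imCM-NF libraries 17.4 and 19.7 CPM and the imCM-AF libraries 22.0 and 16.1 CPM, with a log2 difference of 0.02 with a 95% interval from -0.30 to 0.34. Vegfd (Entrez 14205, chromosome X, 164373522 to 164402650) gave the imCM-NF libraries 23.1 and 28.3 CPM and the imCM-AF libraries 26.0 and 22.6 CPM, with a log2 difference of -0.09 with a 95% interval from -0.36 to 0.18. On the RPKM scale Vegfa and Vegfb were the most abundant ligands. Vegfb led in imCM-NF, at 93.4 and 79.0 RPKM against 79.5 and 66.2 for Vegfa, and these ranges overlapped. In imCM-AF Vegfa led, at 117 and 137 RPKM against 97.5 and 101 for Vegfb. Vegfc, Vegfd and Pgf lay between 4.12 and 11.8 RPKM in every library.

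The receptors Flt1 and Kdr were not called. Flt1 (Entrez 14254, chromosome 5, 147561604 to 147726438) was at 45.2 and 46.5 CPM in imCM-NF and at 33.8 and 34.9 CPM in imCM-AF. Its groups did not overlap and its adjusted p passed (0.0052, edgeR), but the log2 difference of -0.42 ± 0.10 (SE) was under the fold threshold. Its adjusted p was 0.0555 by DESeq2, and 0.0581 by edgeR without imCM-NF replicate 2. Kdr (Entrez 16542, chromosome 5, 75932827 to 75979072) was at 31.2 and 26.1 CPM in imCM-NF and at 26.2 and 25.5 CPM in imCM-AF. These groups overlapped, and the log2 difference was -0.14 with a 95% interval from -0.40 to 0.11 (edgeR adjusted p = 0.403). Both receptors lay between 2.501 and 3.46 RPKM in all 4 libraries, below every ligand. The exon length behind the RPKM of Flt1, 13504 bases, is the union over all its annotated transcripts and includes exons that a given transcript lacks.

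Of the co-receptors, Nrp2 fell and Nrp1 did not pass the test. Nrp2 (Entrez 18187, chromosome 1, 62703317 to 62818692), which binds VEGF-C and class 3 semaphorins, was at 64.0 and 74.2 CPM in imCM-NF and at 36.6 and 36.7 CPM in imCM-AF. Neither imCM-AF library reached an imCM-NF library, and the log2 fold change was -0.92 ± 0.10 (SE, 95% interval -1.13 to -0.70, edgeR adjusted p = 5.91e-06). Nrp1 (Entrez 18186, chromosome 8, 128358591 to 128505476), the co-receptor of Kdr, was at 219.6 and 190.4 CPM in imCM-NF and at 213 and 239 CPM in imCM-AF. Its groups overlapped, with a log2 difference of 0.14 ± 0.11 (SE, edgeR adjusted p = 0.344). At 19.5 to 24.4 RPKM Nrp1 was the most abundant of the 4 receptors and co-receptors in each library.

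**Figure D1:**
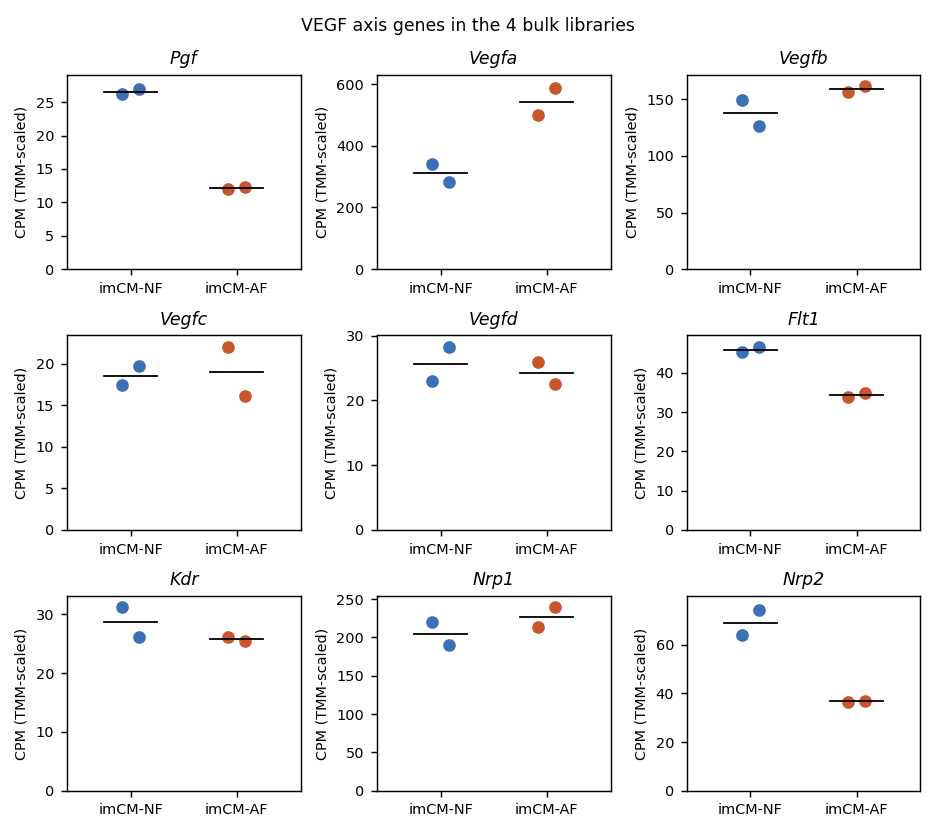
CPM of the 9 members in each bulk library (points) of imCM-NF and imCM-AF, with the mean of each group as a line. Vegfa is higher, and Pgf and Nrp2 are lower, in both imCM-AF libraries, while the points of Vegfc, Vegfd, Kdr and Nrp1 overlap.

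The promoters of the members are set out here for the gene that rose (Vegfa), a gene that fell (Nrp2) and a gene that did not pass the test (Vegfd), to show how they differ in base composition. Each run is the 250 bases before the RefSeq start in GRCm38.p6, read 5′ to 3′ on the gene's strand. Capitals mark the GC box (GGGCGG or its reverse complement CCGCCC) and the TATA sequence TATAAA (or TTTATA).
Vegfa, chr17:46032378-46032627, minus strand: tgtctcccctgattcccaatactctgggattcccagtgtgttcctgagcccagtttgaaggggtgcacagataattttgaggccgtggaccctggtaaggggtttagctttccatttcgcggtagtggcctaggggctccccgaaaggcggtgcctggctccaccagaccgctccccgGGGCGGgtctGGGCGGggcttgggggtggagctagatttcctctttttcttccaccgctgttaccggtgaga
Nrp2, chr1:62703067-62703316, plus strand: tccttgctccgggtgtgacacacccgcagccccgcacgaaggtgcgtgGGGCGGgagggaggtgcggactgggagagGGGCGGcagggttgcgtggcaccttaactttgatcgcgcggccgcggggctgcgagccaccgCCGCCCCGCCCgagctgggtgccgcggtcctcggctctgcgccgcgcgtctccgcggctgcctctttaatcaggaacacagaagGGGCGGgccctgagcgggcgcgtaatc
Vegfd, chrX:164373272-164373521, plus strand: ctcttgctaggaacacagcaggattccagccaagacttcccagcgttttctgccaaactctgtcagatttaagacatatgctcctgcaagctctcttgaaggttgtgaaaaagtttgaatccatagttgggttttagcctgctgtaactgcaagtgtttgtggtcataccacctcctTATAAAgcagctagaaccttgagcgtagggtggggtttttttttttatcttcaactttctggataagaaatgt
The Vegfa window held 2 GC boxes at 59.2% G and C, and the Nrp2 window held 5 at 72.4% G and C. The Vegfd window held no GC box at 42.4% G and C, and held a TATAAA that begins 73 bases before the start. Over all 32851 RefSeq windows of this length the median was 52.4% G and C, a GC box was present in 32.7% and TATAAA in 12.4%. The letters ACGTG or CACGT, the core bound by hypoxia-inducible factors, were in 16.6% of all windows and in none of these 3, which says only that these letters are not in these windows. RefSeq gives Vegfa a second start, whose window (chr17:46025164-46025413, not printed) held 1 such core and 1 GC box.

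Further genes of the pathway came from lists chosen by function. Over all genes tested 11.1% were called (6.15% higher and 4.99% lower), the share to set beside each list count below. Of 13 other genes for VEGF ligand processing and receptors that were tested, 2 were higher and 2 were lower (3 called in all by DESeq2), with a median log2 difference of -0.001 against 0.0011 over all genes. Ccbe1, which promotes the cleavage that activates VEGF-C, measured 0.11 and 0.41 CPM with NF against 1.92 and 1.76 CPM with AF (log2 fold change 2.65 ± 0.52, edgeR adjusted p = 0.00135), a low level in all 4 libraries. Plxnd1, a semaphorin receptor of endothelial cells, fell from 318 and 325 CPM to 196.0 and 195.7 CPM (log2 fold change -0.71 ± 0.10, edgeR adjusted p = 7.8e-05). Sema3c, a class 3 semaphorin and neuropilin ligand, rose by 1.46 on the log2 scale (edgeR adjusted p = 3.26e-07), while Sema3d fell by 0.82 on that scale (edgeR adjusted p = 0.0195). The receptor of VEGF-C and VEGF-D, Flt4, measured 45.8 and 45.9 CPM with NF against 35.4 and 40.2 CPM with AF and was not called (edgeR adjusted p = 0.0543).

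Of 33 genes of VEGF receptor signalling, beside 11.1% called over all genes tested, 3 were called, all lower (median log2 difference -0.04). These were Nos3, the endothelial nitric oxide synthase (51.6 and 54.9 CPM against 24.4 and 22.4 CPM, log2 fold change -1.19, edgeR adjusted p = 5.29e-07), the endothelial cadherin Cdh5 (-0.75, edgeR adjusted p = 5.88e-05) and the endothelial phosphatase Ptprb (-0.71, edgeR adjusted p = 5.92e-05). Of 12 endothelial genes known to respond to VEGF, 3 were called by edgeR, all lower, and 2 by DESeq2, with a median of -0.33. These were the transcription factor Hlx (-0.85), the Notch receptor Notch4 (-0.83) and the peptide ligand Apln (-0.66). Of 25 hypoxia and HIF genes, 0 were called by edgeR, DESeq2 or limma-voom, with a median log2 difference of 0.045. An unadjusted edgeR p under 0.05 was found for 9 of them. The share of all genes at that unadjusted level is not given here, but 3789 of 14041 had an adjusted edgeR p under 0.05. Of 23 other angiogenic ligands and inhibitors, 3 were higher and 3 were lower, with a median of 0.035. Serpinf1 and Angptl4 had log2 fold changes of 1.38 and 0.93 (edgeR adjusted p = 3.3e-07 and 5.04e-06). Col18a1, Thbs2 and Vash1 had log2 fold changes of -0.93, -0.75 and -0.73 (edgeR adjusted p = 5.68e-06, 3.17e-05 and 0.000374).

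In the bulk libraries endothelial and fibroblast markers were lower in imCM-AF by their summed levels, and the other marker lists gave fewer calls. The summed level of 15 endothelial markers was 1170 and 1233 CPM with NF against 819 and 771 CPM with AF. Of these 15, 6 were called lower by edgeR (Pecam1, Cdh5, Tie1, Egfl7, Ecscr and Cldn5), 14 had a negative log2 difference, and the median was -0.49. Cdh5 is also counted in the VEGF receptor signalling list above. The 11 fibroblast markers summed to 15720 and 17230 CPM with NF against 11000 and 8710 CPM with AF, with 7 called lower and a median of -0.72. The 13 cardiomyocyte markers summed to between 28380 and 40790 CPM in the 4 libraries, with overlapping groups and 3 called higher (1 by DESeq2). Of 10 macrophage markers 2 were lower by edgeR and 0 by DESeq2. While 6 had an unadjusted edgeR p under 0.05, the share of all genes at that level is not given here. Among 9 smooth muscle and pericyte markers 1 was higher and 2 were lower, of 3 lymphatic markers 1 was higher, of 6 epicardial markers 1 was lower, and of 2 glial markers 1 was higher. In such bulk libraries fewer cells of a type and less RNA per cell cannot be told apart, and the part of these markers in the fall of Pgf and Nrp2 was not tested.

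**Figure D2:**
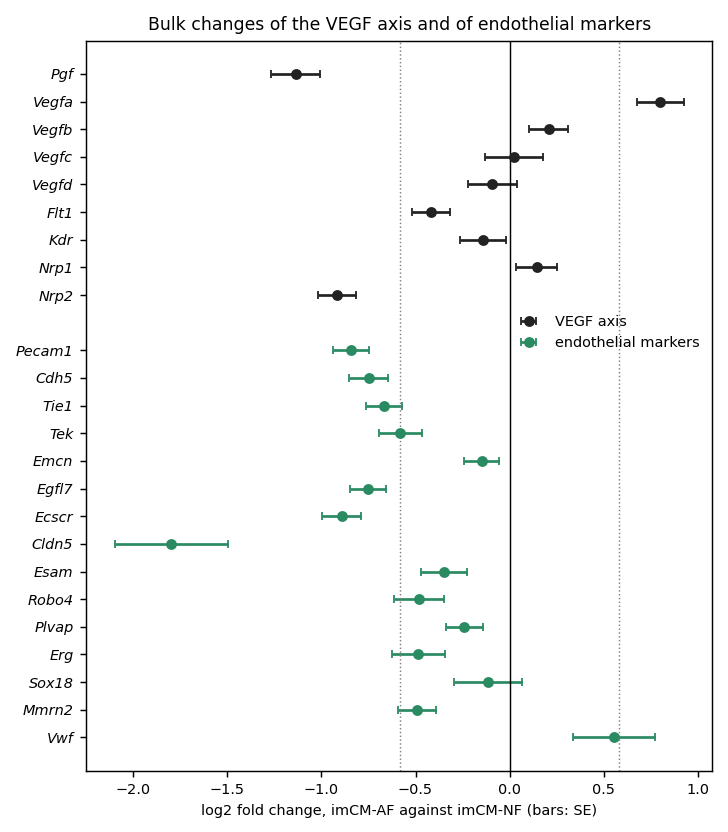
Log2 fold change of imCM-AF against imCM-NF with its standard error for the 9 members and 15 endothelial markers, with dotted lines at the fold threshold of 0.58. Pgf (-1.14) and Nrp2 (-0.92) lie beyond the threshold on the lower side and Vegfa (0.80) on the higher side, and 14 of the 15 endothelial markers lie below 0.

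The single-cell libraries show in which cells these transcripts were counted. Of 2462 non-control wells 2247 cells were kept, under 16 well names in 2 libraries. The cardiomyocytes library held NFNCM1 to NFNCM3 and AFNCM1 to AFNCM3, imCMs after culture with NF or AF, and NCM0, a name that the sources used here do not explain. The fibroblasts library held NF and AF, fibroblasts of the co-culture, and NF0 and AF0, also not explained there. Median depth ran from 13730 UMIs per cell in NFNCM1 to 51940 in the second NF0 well. The 2 libraries shared 269 barcodes, which on this platform are a fixed set, and no doublet caller was run. Each kind was in 1 library and each well name came from 1 plate well, so no test was made. Values are summed UMIs scaled to the same total as in bulk (CPM), intervals cover counting error only, and they are too narrow because UMIs of a gene clump in single cells. In 10 negative control wells 1 UMI of the 9 members was found, of Vegfb.

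Vegfa was higher in every AF well than in every NF well of the same kind. It was at 112, 70.6 and 95.4 CPM in NFNCM1 to NFNCM3 and at 149.8, 131 and 149.5 CPM in AFNCM1 to AFNCM3, a log2 ratio of the sums of 0.63 (95% counting interval 0.53 to 0.74). After thinning to 5000 UMIs a cell, 23.1% to 24.6% of cells in the NFNCM wells and 29.8% to 33.9% in the AFNCM wells held a Vegfa UMI. By summed CPM NCM0 was the highest of the kinds in its library, at 175 and 161 CPM. The mean over cells was 152.5 CPM in NCM0 and 150.2 CPM in AFNCM, and 48.8% and 51.8% of cells held a UMI. In the fibroblasts library Vegfa was at 57.7 and 59.0 CPM in NF and at 155 and 147 CPM in AF, and at 86.2 and 77.7 CPM in NF0 and 147 and 166 CPM in AF0. Here the log2 ratios were 1.37 (95% counting interval 1.21 to 1.53) and 0.97 (0.85 to 1.09).

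Pgf went the other way from the bulk libraries. It was at 9.36, 0.45 and 11.0 CPM in the NFNCM wells and at 19.6, 38.1 and 39.5 CPM in the AFNCM wells, a log2 ratio of 2.31 (95% counting interval 1.99 to 2.64). A single AFNCM cell held 82 of the 517 UMIs, and without the highest cell of each kind the levels were 5.08 and 28.9 CPM. Cells with a Pgf UMI made up 1.19% to 5.81% of the NFNCM wells and 11.2% to 15.6% of the AFNCM wells, and 0% to 3.65% and 6.55% to 7.60% after thinning. In the fibroblasts library Pgf was at 6.20 and 5.29 CPM in NF and 13.1 and 16.7 CPM in AF, without overlap, and overlapped between NF0 and AF0. The log2 ratio of AF to NF, 1.36, was 0.61 with the filter on genes alone and 2.5 as a mean over cells.

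Of the receptors, Kdr had 45 UMIs in the NFNCM wells and 270 in the AFNCM wells, and Flt1 had 214 and 508. Kdr was at 6.33, 0.67 and 3.68 CPM in the NFNCM wells and 10.1, 26.1 and 14.8 CPM in the AFNCM wells, without overlap, and at 0 to 7.11 CPM in the fibroblast wells. Flt1 was at 15.9, 8.02 and 24.9 CPM in the NFNCM wells and at 21.3, 38.7 and 36.4 CPM in the AFNCM wells, which overlapped, and between 34.8 and 77.8 CPM in the fibroblast wells. Nrp2 was at 29.9, 41.7 and 27.1 CPM against 45.7, 51.1 and 42.5 CPM, without overlap and opposite to the bulk direction (log2 ratio 0.50, 95% counting interval 0.32 to 0.67). Nrp1 overlapped, at 172 to 185 CPM against 161 to 183 CPM.

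Of the 9 members, the AFNCM wells lay above the NFNCM wells for 5 (Pgf, Vegfa, Vegfc, Kdr and Nrp2) and below for 1 (Vegfd), while 14.2% and 5.87% of the 12123 genes with at least 200 UMIs did so. The AF wells lay above the NF wells for 4 members (Pgf, Vegfa, Vegfc and Nrp1) and below for 1 (Vegfb), against 27.2% and 16.9% of those genes. The AF0 wells lay above the NF0 wells for 1 member (Vegfa) and below for 2 (Vegfb and Nrp2), against 28.8% and 25.7%. Vegfc was at 1.34 to 2.02 CPM in the NFNCM wells and 5.95 to 8.40 CPM in the AFNCM wells, and Vegfd was at 2.38 to 7.59 CPM and 0.53 to 1.96 CPM. Both rest on few UMIs, 22 and 107 for Vegfc and 52 and 15 for Vegfd in the NFNCM and AFNCM wells. Their log2 ratios of AFNCM to NFNCM moved with the processing, for Vegfc from 2.07 to 1.02 by the share of cells after thinning, and for Vegfd from -2.00 to -0.79 with the filter on genes alone.

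**Figure D3:**
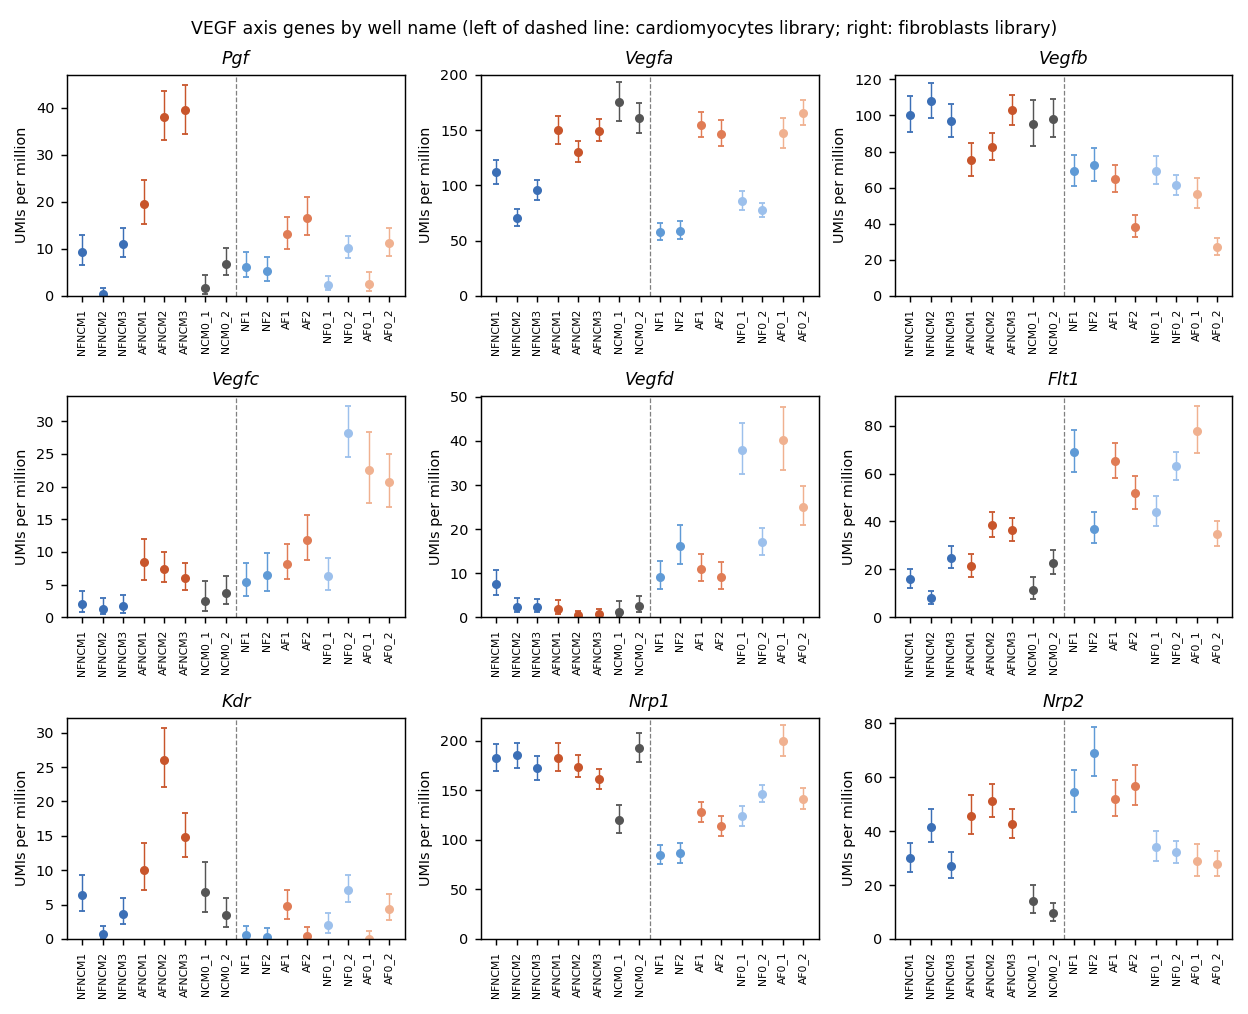
CPM of the 9 members in each of the 16 well names, with 95% Poisson counting intervals, and a dashed line between the cardiomyocytes and the fibroblasts library. Vegfa is higher in each AF kind than in the matching NF kind, and Pgf and Kdr are higher in the AFNCM wells.

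The cells were then clustered without the 9 members, into 14 clusters, and named from marker genes. There were 770 cardiomyocyte-like cells in 4 clusters, 805 fibroblast-like cells in 3, 118 endothelial-like cells in 2 and 38 macrophage-like cells in 1, and 516 cells in 4 clusters stayed unnamed. Of the cardiomyocyte-like clusters, cluster 6 had no cardiomyocyte marker among its leading genes, 3 fibroblast markers raised and the highest median depth, 40850 UMIs. The unnamed cluster 14 held 168 cells, 167 of them AF0, out of 170 AF0 cells kept. It had 9 endothelial and 4 fibroblast markers raised.

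Kdr and Pgf were concentrated in the smaller endothelial-like cluster. Cluster 8, with 38 AFNCM cells and 4 NFNCM cells, was led by Fabp4, Angpt2 and Cd93. Its Kdr level was 154 CPM (95% counting interval 134.5 to 175.8), with a UMI in 64.3% of cells, against 0.90% to 6.82% in the 4 cardiomyocyte-like clusters, a cell type that should lack the gene. The highest of these was cluster 9, where 3 of 44 cells held 33 Kdr UMIs (19.8 CPM). For the larger clusters 1 and 5, with 1.66% and 0.90%, the median depths were 32170 and 13890 UMIs against 27390 in cluster 8, and after thinning the shares were 0.33% and 0% against 47.4%. After thinning cluster 9 held Kdr in 7.32% of cells. Pgf was at 256 CPM in cluster 8 (95% counting interval 230.1 to 283.0), with a UMI in 57.1% of cells and 42.1% after thinning. In the cardiomyocyte-like cells together it was at 2.503 CPM, with a UMI in 4.03% of cells and 0.862% after thinning. At a finer clustering the matching cluster had 15 endothelial and 9 cardiomyocyte markers raised and stayed unnamed. Cluster 8 also carried 5460 CPM of Tnnt2, a cardiomyocyte gene, against 1118 CPM in the other endothelial-like cluster and 18950 CPM in cluster 1.

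The other endothelial-like cluster, cluster 12, with 76 cells of both libraries, had the highest Flt1 level of the 14. It was at 209.7 CPM there (95% counting interval 192.8 to 227.6) against 128 CPM in cluster 8, 32.2 to 53.1 CPM in the fibroblast-like clusters and 1.29 to 25.2 CPM in the cardiomyocyte-like clusters. Its Kdr was at 15.9 CPM and its Pgf at 11.1 CPM. Both receptors had a UMI in 19 of 42 cells of cluster 8 and in 7 of 76 cells of cluster 12, while Flt1 alone was found in 4 and 45 cells. Pgf and Kdr were found together in 18 cells of cluster 8.

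Cardiomyocyte-like cells were 56.6% of the cardiomyocytes library and held 75.4% of its Vegfa UMIs, 76.65% of its Vegfb UMIs and 74.3% of its Nrp1 UMIs. Shares of UMIs also rise with depth. Over both libraries the median was 24680 UMIs in cardiomyocyte-like cells and 10250 in unnamed cells. Vegfa was at 143 CPM in cardiomyocyte-like cells, 102 CPM in fibroblast-like, 77.9 CPM in endothelial-like and 30.6 CPM in macrophage-like cells, and its highest level was 279.6 CPM in cluster 9, 44 cells led by the atrial genes Sln, Myl7 and Nppa. Nrp1 was at 201 CPM in cardiomyocyte-like and 246 CPM in endothelial-like cells, against 93.0 CPM in fibroblast-like cells. Nrp2 was highest in macrophage-like cells, at 188 CPM, and stood at 111 CPM in endothelial-like, 49.9 CPM in fibroblast-like and 9.34 CPM in cardiomyocyte-like cells. Vegfd was at 15.6 CPM in fibroblast-like and 1.17 CPM in cardiomyocyte-like cells.

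Endothelial-like cells were 5.25% of the cells of the cardiomyocytes library and held 60.5% of its Pgf UMIs (95% Clopper-Pearson interval 56.6% to 64.3%), 72.3% of its Kdr UMIs and 39.4% of its Flt1 UMIs. Cluster 8 alone held 57.95% of the Pgf UMIs of that library. In the fibroblasts library such cells were 5.26% of cells and held 4.28% of Pgf, 15.0% of Kdr and 21.2% of Flt1 UMIs. There fibroblast-like cells were 63.8% of cells and held 69.4% of the Pgf UMIs. In the AFNCM wells endothelial-like cells held 70.4% of the Pgf UMIs and 83.3% of the Kdr UMIs. In the NFNCM wells they held 22.2% of 90 Pgf UMIs, with 35.6% in fibroblast-like and 26.7% in macrophage-like cells, the last all in 1 cell with 24 UMIs. Endothelial-like cells made up 12.8%, 11.8% and 7.78% of the AFNCM wells and 2.73%, 1.19% and 3.49% of the NFNCM wells, and 0 of 110 and 0 of 148 cells of NCM0. In the fibroblasts library they made up 13.0% and 5.32% of the NF wells and 9.09% and 4.08% of the AF wells, which overlapped. The 15 endothelial markers had served to name these cells, so their sums are no separate support for these shares. The sums were 431, 520.3 and 411 CPM in the AFNCM wells and 121, 50.4 and 227 CPM in the NFNCM wells, opposite to the bulk libraries. The 11 fibroblast markers were opposite to bulk as well. Their sums were 2155, 2520 and 2850 CPM in the AFNCM wells and 1220, 968 and 774.5 CPM in the NFNCM wells.

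Without the endothelial-like cells, Pgf was at 9.53, 0.46 and 7.10 CPM in the NFNCM wells and at 14.0, 10.6 and 11.0 CPM in the AFNCM wells, which still did not overlap. The unnamed cluster 2, with 120 AFNCM cells of 123, was kept in these values and had 7 endothelial and 8 cardiomyocyte markers raised. When each cluster with at least 5 endothelial markers raised was left out, named or not, Pgf was at 9.53, 0.46 and 6.89 CPM in the NFNCM wells and at 12.9, 9.81 and 4.94 CPM in the AFNCM wells, which overlapped. Without the endothelial-like cells Kdr, at 4.89, 0.68 and 0 CPM against 1.25, 6.85 and 1.54 CPM, then overlapped, and so did Nrp2, at 27.9 to 38.3 CPM against 22.97 to 38.6 CPM. The log2 ratio of Flt1 was then 0.15 in place of 1.04. Within cardiomyocyte-like cells Vegfa was at 146, 72.8 and 105.5 CPM in the NFNCM wells and at 199.8, 140.3 and 173 CPM in the AFNCM wells, which overlapped. Most AFNCM cells of this class were in cluster 1 (144 cells) and most NFNCM cells in cluster 5 (178 cells). Within cluster 1 Vegfa was at 91.7 CPM in NFNCM and 138 CPM in AFNCM cells. Within fibroblast-like cells Vegfa was at 66.4 and 67.6 CPM in the NF wells and at 172 and 155 CPM in the AF wells, with AF cells mostly in cluster 3 and NF cells mostly in cluster 4.

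**Figure D4:**
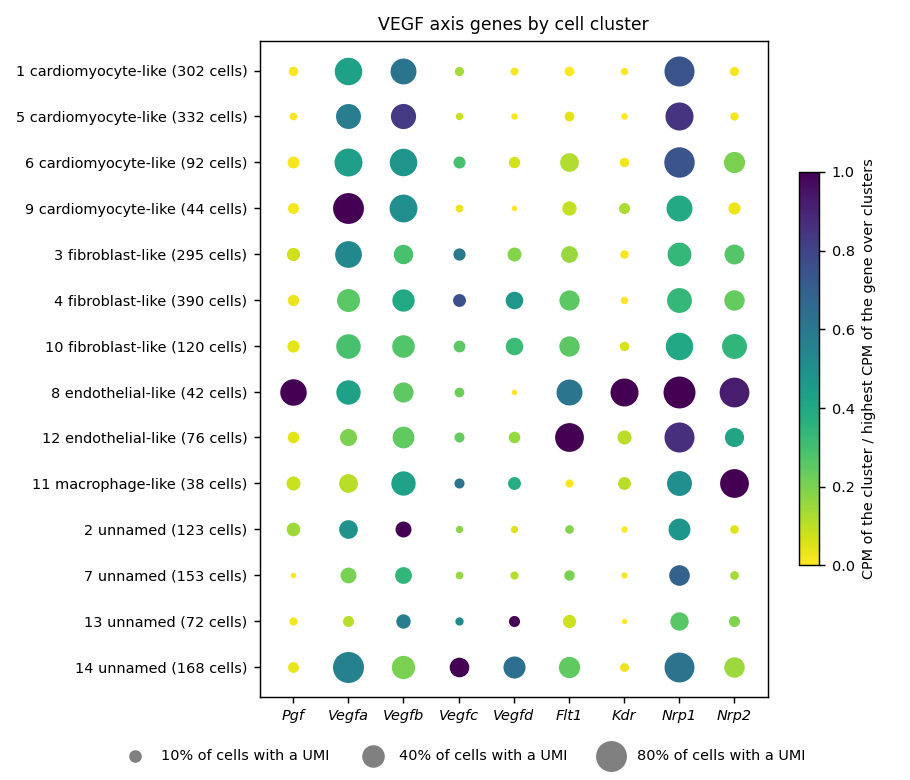
The 9 members in the 14 clusters, with the point size giving the percent of cells with a UMI and the colour the CPM as a share of the gene's highest CPM. Kdr and Pgf are highest in cluster 8, Flt1 in cluster 12, Nrp2 in the macrophage-like cluster 11 and Vegfa in cluster 9.

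**Figure D5:**
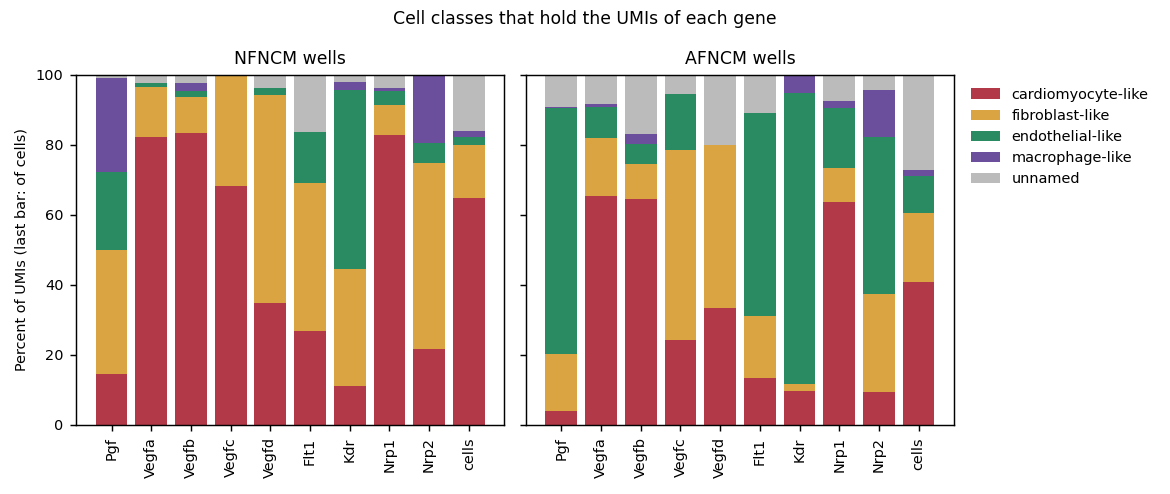
Percent of each member's UMIs by cell class in the NFNCM and AFNCM wells, with the cells themselves as the last bar. Endothelial-like cells hold 83.3% of Kdr and 70.4% of Pgf UMIs in AFNCM, and 22.2% of Pgf UMIs in NFNCM.

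The genes most like a member over the 16 well names were named by the Pearson correlation of log2(CPM + 1) among 7259 genes, as a description. For Pgf these were Spp1 (0.88) and Atf3 (0.80), for Vegfa Dnajb9 (0.90), Map2k5 (0.87) and Lsp1 (0.84), and for Kdr Lama5 (0.82), Avpi1 (0.78) and Ctsb (0.74). The 16 points share 2 libraries and differ in depth and in the cell classes they hold.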

How the data were processed

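The submitters' processing notes name mm10, featureCounts, Subread 1.4.6-p1 and STAR 2.5.2b. By the study's methods, the authors aligned bulk reads with Subread and single-cell reads with STAR, both to mm10, and counted both with featureCounts. They deposited bulk gene counts (2 imCM-NF and 2 imCM-AF libraries) and UMI counts per well of 2 ICELL8 libraries. The TruSeq kit does not mark strand. The labels describe centrifugation to recover cardiomyocytes, and the methods describe sorting by dye.

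Bulk counts with CPM over 1 in at least 2 libraries were tested with edgeR 4.0.16 (TMM, quasi-likelihood, Benjamini-Hochberg), after a test on simulated data with known changes. Alternatives were DESeq2 1.42.0, limma-voom 3.58.1, other scalings, filters and thresholds, a replicate block and leaving out each library. RPKM used exon lengths of the GRCm38 annotation. Cells had at least 500 genes, over 50% aligned reads and at most 129577 UMIs (mean plus 2 SD), and 34 mitochondrial genes were left out. Spike-ins were not used. Clusters were made with scanpy 1.11.5 (10 components, 30 neighbours, resolution 1). A cluster was named when at least 3 markers of a class were raised and the next class had at most 50% as many. A raised marker had at least 10 CPM and 2 times the median over clusters. The cluster stayed unnamed if its 10 leading genes held more markers of another class. It also stayed unnamed if it was shallow for its library and those genes held no marker of its own class. These rules were set after the clusters were seen. The named genes were all 9 members, up to 5 called genes per pathway list, and the 3 genes most like each of Pgf, Vegfa and Kdr, of which 1 is not reported here. Ccbe1, Plxnd1, Flt4 and the markers were named besides. The members and lists were chosen with earlier results of these data known.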

Additional observations from a re-analysis of the deposited data

Results flagged for a closer look

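Pgf moved in opposite directions in the bulk and single-cell libraries under the same contrast of AF against NF co-culture, at a log2 fold change of -1.14 in bulk imCMs and a log2 ratio of 2.31 between AFNCM and NFNCM wells. Every bulk imCM-AF library was below, and every AFNCM well above, its neonatal counterparts. Nrp2 did the same, at -0.92 in bulk and 0.50 between the wells, and its ratio was -0.13 without endothelial-like cells. Without every cluster that had at least 5 endothelial markers raised, the Pgf ratio was 0.69 and its wells overlapped. The differences between the bulk and single-cell results were not tested.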

How the results depend on the processing

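Vegfa, Pgf and Nrp2 were called under each scaling, tool, filter and left-out library tried for the bulk data, with 3 members called each time, and 4 with the adjusted p alone. The number of genes changed, 1564, ranged from 879 (without imCM-NF replicate 2) to 1929 (without imCM-NF replicate 1) as each library was left out, with 988 without imCM-AF replicate 2. The fit then takes the spread of the remaining pair for the lone library. With the adjusted p alone 3789 genes changed, and with an absolute log2 fold change over 1, 565 genes and 1 member (Pgf). Vegfc, not called, was -0.06 with imCM-NF replicate 1 left out and -0.20 with imCM-AF replicate 1 left out, in a range of -0.20 to 0.24. Vegfd, not called, was 0.08 with imCM-NF replicate 2 left out and 0.01 with imCM-AF replicate 2 left out, in a range of -0.22 to 0.08.

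Libraries with the same replicate number did not deviate together (correlation -0.176), so they share only a number. With the replicate block 1430 genes and 3 members were called, and no call of a member changed. The crossed replicate block, chosen after seeing the data, gave 1668 genes and 3 members.

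The Pgf log2 ratio of AFNCM to NFNCM wells was 2.86 as a mean over cells, 1.81 by the share of cells with a UMI, 1.06 without endothelial-like cells and 0.69 without every cluster with endothelial markers raised. The Vegfa ratio of 0.63 was 0.27 by the share of cells and 0.39 after thinning. Alternatives by share of cells and those that leave out clusters or the highest cell were chosen after seeing the data. At clustering resolution 2 endothelial-like cells held 2.52% of the Pgf UMIs, since the matching cluster of 45 cells, with 60.0% of them, had 15 endothelial and 9 cardiomyocyte markers raised and stayed unnamed by the rule. With 1 library of each kind, single-cell differences between wells have no replicate check. The cause of these shifts was not tested.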

Other observations

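The unnamed clusters carried members as well. Cluster 2, with 120 AFNCM cells of 123 and a median of 7722 UMIs, had Pgf at 37.7 CPM (95% counting interval 27.9 to 49.8) and Vegfb at 173 CPM. A single cell held 101 of its 225 Vegfb UMIs, and the mean over its cells was 68.2 CPM. This cluster had 8 cardiomyocyte and 7 endothelial markers raised. Cluster 14, which was almost wholly AF0, had 9 endothelial and 4 fibroblast markers raised, and its leading gene was the epicardial marker Upk1b. It had Vegfa at 158 CPM, Vegfc at 21.6 CPM and Vegfd at 29.7 CPM, with Cdh5 at 126 CPM. Its Vegfa was detected in 80.4% of cells, and in 46.4% after thinning.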
